A study of Bos taurus with 43 samples.

Results

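Muscle wasting and growth restraint were followed through 6 genes (DDIT4L, GLUL, TRIM63, FBXO32, FOXO1 and MSTN) in the biceps brachii muscle of 43 male cattle. They are 6 of the 15054 genes that could be named on the array, and each had 1 of its 21475 gene probes. A probe was taken as a member where the gene name, the description or the symbol behind the accession in the scanner files was that of the gene. These are GLUL (A_73_106746, accession NM_001040474), DDIT4L (A_73_102753, accession CB456831, named by its description), FBXO32 (A_73_102972, accession BF652982, named by its description), TRIM63 (A_73_111223, accession XM_607348), FOXO1 (A_73_109828, accession AW437583, described as FOXO1A) and MSTN (A_73_120254, accession NM_001001525, listed as GDF8). The files name no genome build, and no genome positions were used here.

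In skeletal muscle, the mass of a fibre follows the balance of protein synthesis and breakdown. The ubiquitin ligases FBXO32 (atrogin-1) and TRIM63 (MuRF1) mark muscle proteins for the proteasome, and the FOXO transcription factors, which insulin signalling through AKT keeps out of the nucleus, drive both genes. DDIT4L restrains the growth kinase complex mTORC1, myostatin (MSTN) is secreted by muscle and limits its growth through activin receptors and SMAD proteins, and GLUL makes glutamine, an amino acid that wasting muscle exports. Glucocorticoids are known to raise GLUL, FBXO32, TRIM63 and FOXO1 in muscle.

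The study asked whether expression in muscle can tell commercial beef cattle given corticosteroids from untreated animals. The 4 positive animals (S21, S54, S56, S57), which the labels give as suspected of corticosteroid treatment and the study classed as positive by thymus histology and dexamethasone in urine, came from the slaughterhouse, and neither dose nor time of treatment was known. The 21 unknown animals also came from the slaughterhouse, with treatment unknown. The 5 cross-breed controls (K7, K8, K10, K11, K12; Charolais × Limousine) and the 13 Holstein controls (C17 to C48) were untreated animals from earlier controlled experiments, whereas most commercial animals were Charolais, Limousine or their cross, so that breed and origin differ along with treatment. Unknown animals are further split by a published principal component analysis (PCA) of these same arrays, where 10 lie in group B beside the positive animals and 11 in group A beside the cross-breed controls. Of these 11, the PCA of all 43 arrays held 5 (263, 265, 266, 269, 270) in circle 2, the circle of the cross-breed controls, and 6 (36, 37, 38, 49, 51, 58) in circle 4. Circle 4 also held animal 76 of group B, which is counted here with group B only, so that circle 4 stands for its 6 animals of group A. As the labels do not give these sets, and the arrays themselves defined them, differences between them are described without a test.

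Each animal was measured on 1 single-colour array, and values are normalized log2 signals of a probe, so that 1 unit is a 2-fold difference and levels of different probes cannot be compared. A signal was taken as well above background where the scanner software flagged it so on a share of at least 0.5 of the spots of the probe. Of all spots, the positive animals had 74.9% to 89.4% so flagged, against 62.9% to 73.6% for cross-breed and 62.3% to 73.2% for Holstein arrays, and among unknown animals this share spanned 40.2% (animal 79) to 97.3% (animal 50). All 6 skeletal muscle markers (ACTA1, CKM, DES, MB, MYOT, TTN) were well above background on every array of each set. The arrays of 5 animals of group B (29, 39, 52, 61, 76) stood apart in the mean spike-in signal before normalization, with 5.56 to 7.53 against 8.79 to 11.37 on the other 38 arrays. All 6 members passed the filter on dim probes and none was saturated on any array. DDIT4L, GLUL, TRIM63, FBXO32 and FOXO1 were well above background on all 43 arrays, and MSTN on 25.

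For DDIT4L and GLUL, which were also measured by qRT-PCR, the primers are shown, since these mark the transcripts that were lower in the positive animals than in both control sets. They are written 5′ to 3′ in lower case, with no part singled out, and those of DDIT4L were designed on accession NM_001081519, another record than that of the probe.
DDIT4L forward: agtaagaacccggccagca
DDIT4L reverse: aaatcatttagcaggctcccc
GLUL forward: caaccgaaagcctgcagaga
GLUL reverse: gctggttgctcaccatgtcc

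In the positive animals DDIT4L, GLUL, TRIM63 and MSTN were lower than in the cross-breed controls, by 4.09-, 4.53-, 2.1- and 5.14-fold, while FBXO32 and FOXO1 passed no test. Against the Holstein controls DDIT4L, GLUL, TRIM63 and FOXO1 were lower, by 3.72-, 5.54-, 4.17- and 15.2-fold, and MSTN was higher. Calls required an adjusted p under 0.05 in limma and a 2-fold change. The 4 of 6 members called lower against the cross-breed controls stand beside 13.8% of all 16354 tested probes called lower and 28.1% called in either direction. Against the Holstein controls 4 of 6 were lower and 1 higher, beside 9.4% of the probes called lower and 8.4% called higher. Both comparisons use the same 4 positive animals. The positive animals had no slide or scan day in common with either control set, and the cross-breed arrays were read on other scanners than all other arrays, so that batch and group cannot be told apart in these comparisons. In whole muscle, fewer cells of a type and less RNA per cell cannot be told apart either.

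**Figure D1:**
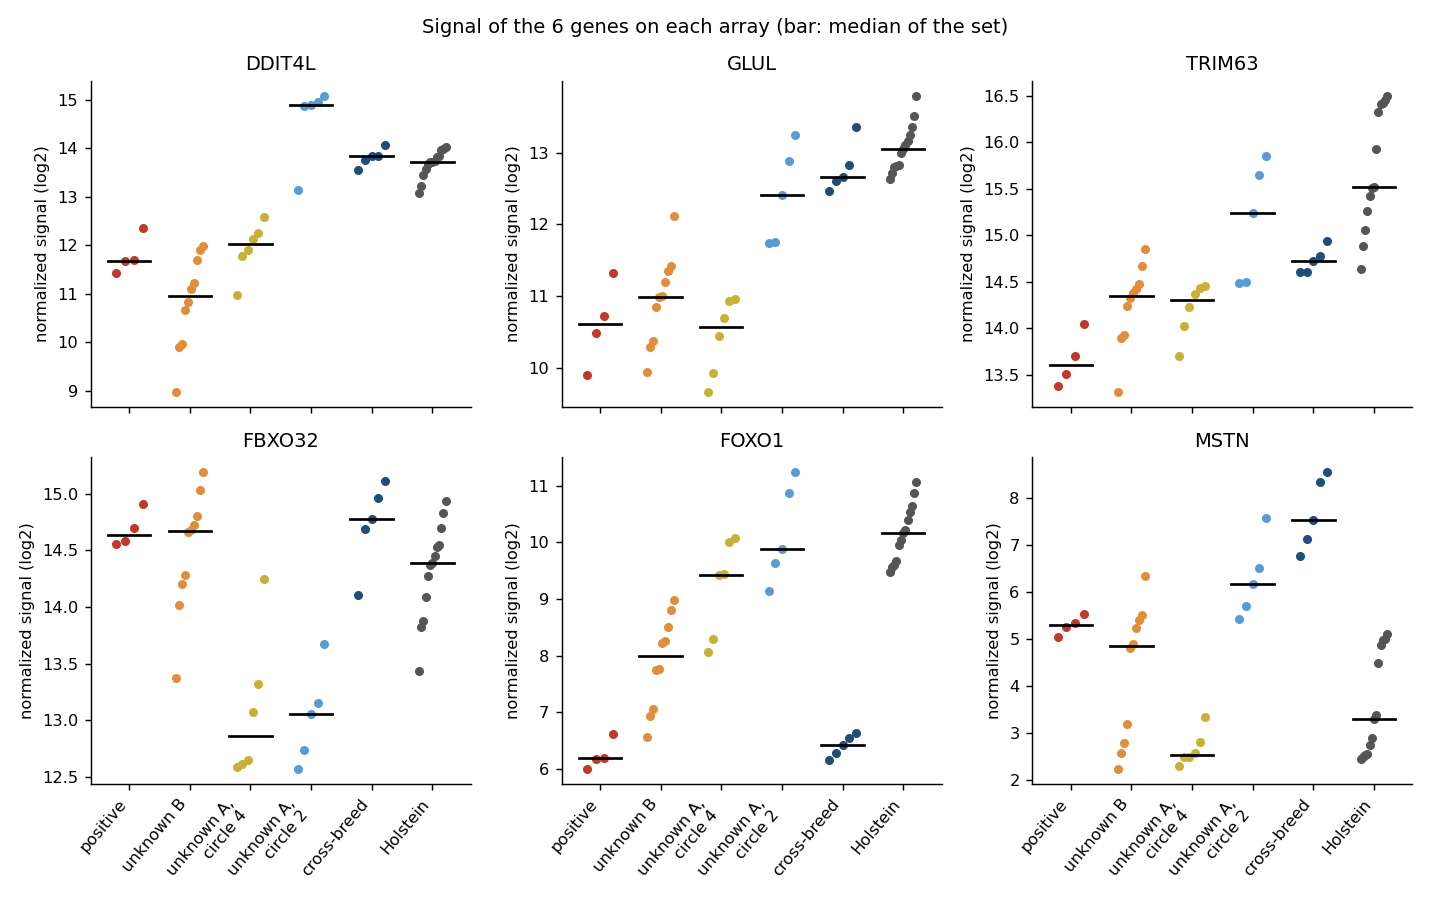
Normalized log2 signal of each gene on each of the 43 arrays, by set (points: animals, bar: median of the set, each panel with its own scale). DDIT4L lies between 8.97 and 12.59 in the positive animals, unknown B and unknown A of circle 4, and between 13.08 and 15.08 in the 3 other sets.

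**Figure D2:**
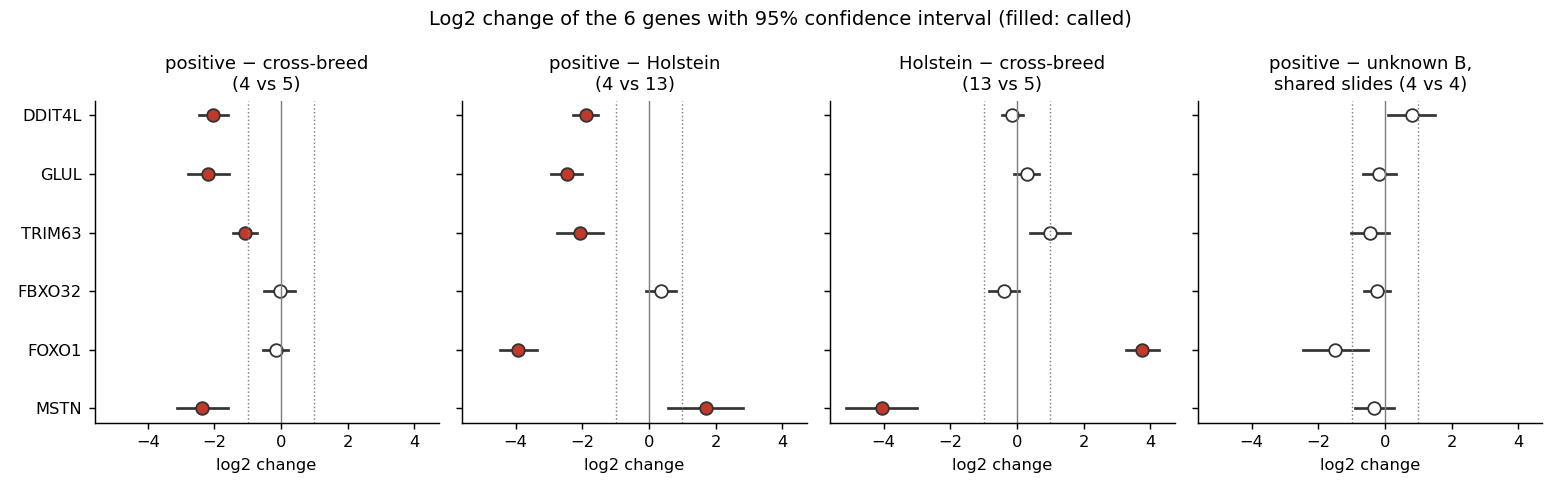
Log2 change of each gene in 4 comparisons, with the 95% confidence interval of the limma fit as a line, dotted lines at a 2-fold change and filled points for called genes. DDIT4L, GLUL and TRIM63 lie left of 0 against both control sets, whereas FOXO1 and MSTN depend on which control set is used.

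DDIT4L (REDD2), a stress-responsive inhibitor of mTORC1 related to DDIT4, was the only member whose signal split the 43 arrays without overlap. Its signal was 11.43 in S21, 11.67 in S54, 12.35 in S56 and 11.69 in S57. In the cross-breed controls it was 13.85 in K7, 13.56 in K8, 13.84 in K10, 13.76 in K11 and 14.07 in K12. All 4 positive animals lay below all 5 cross-breed controls, as was so in either direction for 43.3% of the tested probes. The mean was 11.78 ± 0.39 (SD, n = 4) against 13.82 ± 0.18 (SD, n = 5), a log2 change of -2.03 (standard error 0.20, limma adjusted p = 2.2e-05), with a 95% interval of the fold from 3.02 to 5.52. With all 43 arrays in a common fit its adjusted p was 0.0547.

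The Holstein controls had DDIT4L signals of 13.08 to 14.02 with a median of 13.72, and again no positive animal reached them (16.4% of the tested probes had no overlap here). The log2 change against them was -1.89 (standard error 0.18, limma adjusted p = 5.25e-07). From one control set to the other (Holstein minus cross-breed) the log2 change was -0.14 (95% interval -0.44 to 0.17, limma adjusted p = 0.449), so that any difference between the control sets was under 2-fold.

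The unknown animals took both levels of DDIT4L. In the 10 animals of group B the lowest signal was 8.97 (animal 39), the median 10.96 and the highest 11.98 (animal 81). In circle 4 of group A the 6 animals ran from 10.98 to 12.59 with a median of 12.03. In circle 2, DDIT4L was 14.87 in animal 263, 13.15 in 265, 14.89 in 266, 15.08 in 269 and 14.96 in 270. Group B and circle 4 thus overlapped with the positive animals, and circle 2 lay within or above the range of the controls. Across all arrays, the highest of the 20 animals in the positive, group B and circle 4 sets had 12.59 and the lowest of the 23 others had 13.08. Such a gap in either direction was found for 96 of 16354 probes (0.587%), with the lower signal in the same 20 animals for 50 of them (0.306%). Without the 5 arrays of low spike-in signal the median of group B was 10.83, and without animal 79 it was 11.09.

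Slide 6 was the only slide with animals of circles 2 and 4. On it, DDIT4L was 12.59 in animal 36 and 12.26 in animal 58, both of circle 4, and 15.08 in animal 269 of circle 2. The difference thus had the same direction on a shared slide, with 1 animal on one side.

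GLUL, glutamine synthetase, followed a similar order with less room between the sets. The positive animals had 10.73 (S21), 11.32 (S54), 10.48 (S56) and 9.90 (S57). The cross-breed controls had 13.35 (K7), 12.61 (K8), 12.47 (K10), 12.66 (K11) and 12.83 (K12). The sets did not overlap, and the spread among the positive animals, with S57 lowest, was wider than among the controls. The mean was 10.6 ± 0.59 (SD, n = 4) against 12.78 ± 0.34 (SD, n = 5), a log2 change of -2.18 (standard error 0.28, limma adjusted p = 0.000132). The 95% interval of the fold was 2.95 to 6.96, and GLUL was called under all 19 alternatives tried.

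In the Holstein controls GLUL ran from 12.63 (C41) to 13.79 (C17) with a median of 13.05, above every positive animal. The log2 change was -2.47 (standard error 0.22, limma adjusted p = 3.22e-07). The Holstein minus cross-breed difference of 0.29 (95% interval -0.09 to 0.67, limma adjusted p = 0.189) again left less than a 2-fold difference between the control sets.

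Among the unknown animals, GLUL was 9.95 (animal 81) to 12.11 (animal 61) in group B, with a median of 11. It was 9.66 (animal 51) to 10.96 (animal 36) with a median of 10.57 in circle 4. In circle 2 it was 12.88 in animal 263, 13.24 in 265, 12.41 in 266, 11.75 in 269 and 11.74 in 270. Circle 4 lay wholly below circle 2, but group B reached into it through animal 61, so that the 20 animals low in DDIT4L (9.66 to 12.11) and the 23 others (11.74 to 13.79) overlapped in GLUL. The share of all probes that separate circles 4 and 2 is not given here. On slide 6 the signals were 10.96 and 10.93 in the animals of circle 4 and 11.75 in animal 269.

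**Figure D3:**
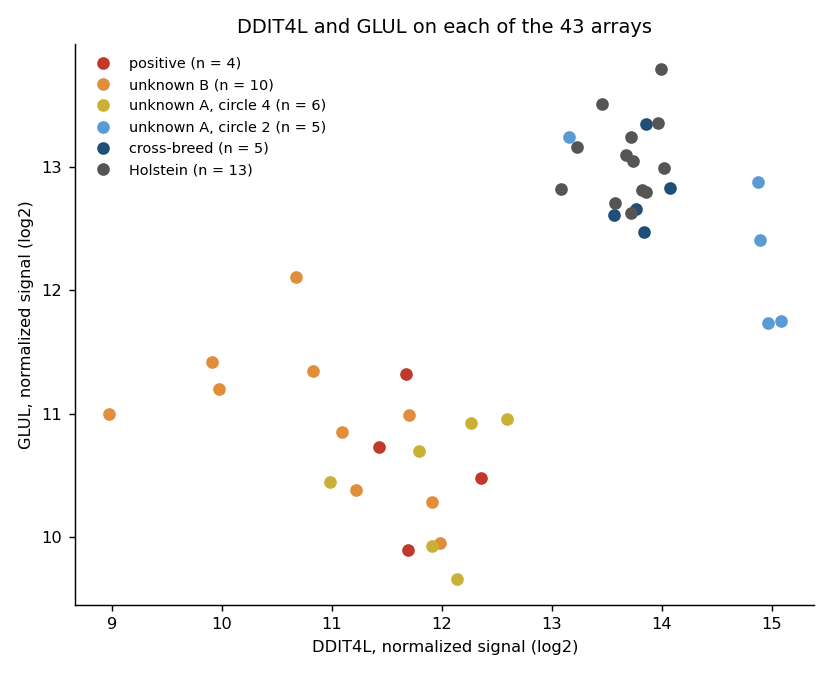
Normalized log2 signal of DDIT4L (horizontal) and GLUL (vertical) on each array, 1 point per animal, coloured by set. The 20 animals of the positive, unknown B and circle 4 sets lie at DDIT4L signals up to 12.59, apart from the 23 others, which start at 13.08, and both clouds overlap in GLUL between 11.74 and 12.11.

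TRIM63, a ligase of the sarcomere that targets myosin and other thick filament proteins, was also lower in the positive animals, by less. Its signal was 13.51 in S21, 14.04 in S54, 13.70 in S56 and 13.38 in S57. The cross-breed controls had 14.61 (K7), 14.94 (K8), 14.61 (K10), 14.78 (K11) and 14.72 (K12). No positive animal overlapped with them, and the log2 change was -1.07 (standard error 0.16, limma adjusted p = 0.000382). It stayed below 2-fold with 75th percentile scaling (-0.78), quantile normalization (-0.92), pairwise cyclic loess (-0.88) and normexp background correction (-0.78), and without S57 (-0.98).

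The Holstein controls held the highest TRIM63 signals and the widest spread, 14.64 (C47) to 16.5 (C23) with a median of 15.52. Against them the positive animals were lower by a log2 change of -2.06 (standard error 0.33, limma adjusted p = 0.000134). The Holstein controls themselves exceeded the cross-breed controls by 0.99 (95% interval 0.38 to 1.59, limma adjusted p = 0.00956), just under the 2-fold limit and with overlapping ranges. In the unknown animals the medians were 14.35 in group B (13.31 to 14.85), 14.3 in circle 4 (13.70 to 14.45) and 15.24 in circle 2 (14.49 to 15.85). Group B overlapped with every other set, and circle 4 with the positive animals and group B only. The highest of circle 4 (14.45) lay close to the lowest of circle 2 (14.49), and the share of all probes that separate these sets is not given here.

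FBXO32, the other muscle ligase, did not share this pattern. Its signal was 14.56 to 14.91 in the 4 positive animals, within the 14.11 to 15.11 of the 5 cross-breed controls. The log2 change was -0.04 (95% interval -0.50 to 0.41, limma adjusted p = 0.874) and took either sign under the other scalings. Relative to the Holstein animals (13.43 to 14.94, median 14.39) it was 0.36 (95% interval -0.10 to 0.82, limma adjusted p = 0.211). These intervals, which are of the main normalization, exclude a 2-fold difference in either direction. With pairwise cyclic loess the change against the Holstein animals was 0.71 (limma adjusted p = 0.0235, under 2-fold).

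The low FBXO32 signals were those of the unknown animals of group A. In circle 4 it was 12.59 to 14.25 with a median of 12.86, and in circle 2 12.57 to 13.67 with a median of 13.05. Group B had 13.37 to 15.19 with a median of 14.67, close to the positive animals. The medians of group B and group A thus differed by 1.62. Only animal 58 of group A (14.25) reached the range of the cross-breed controls.

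FOXO1, the transcription factor upstream of both ligases, split the control sets instead. Its signal was 6.0 (S21), 6.18 (S54), 6.19 (S56) and 6.61 (S57) in the positive animals. In the cross-breed controls it was 6.16 (K7), 6.42 (K8), 6.54 (K10), 6.63 (K11) and 6.28 (K12). The ranges overlapped, and the log2 change of -0.16 (95% interval -0.53 to 0.21, limma adjusted p = 0.444) had no settled direction, being -0.73 with quantile normalization (adjusted p = 0.0123, under 2-fold), 0.19 with pairwise cyclic loess and 0.78 with normexp background correction.

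In contrast, the Holstein controls had FOXO1 signals of 9.47 (C17) to 11.07 (C20) with a median of 10.16. They exceeded the cross-breed controls by a log2 change of 3.76 (standard error 0.23, limma adjusted p = 1.46e-09), called beside 10.9% of the probes higher and 9.69% lower in this comparison. The positive animals were below them by -3.93 (standard error 0.26, limma adjusted p = 8.7e-09). Under the 14 alternatives this change ran from -4.37 to -2.41, and it was called in each. The unknown animals had medians of 8.0 in group B (6.57 to 8.98), 9.43 in circle 4 (8.06 to 10.07) and 9.89 in circle 2 (9.15 to 11.24). Animal 81 of group B (6.57) reached into the range of the cross-breed controls, while 4 of the 5 animals of circle 2 lay within or above that of the Holstein controls. All 11 unknown animals of group A lay above all 5 cross-breed controls with which the PCA had grouped them. The share of all probes that separate these animals is not given here. The controls differ in breed, age, body weight, slide, scan day and scanner together, which cannot be told apart here.

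MSTN, the secreted brake on muscle growth, was the only member not well above background on all arrays. It was 5.35 in S21, 5.05 in S54, 5.54 in S56 and 5.25 in S57, and 7.54 (K7), 7.12 (K8), 8.55 (K10), 6.77 (K11) and 8.34 (K12) in the cross-breed controls, well above background on all 9 arrays. The positive animals were lower without overlap, by a log2 change of -2.36 (standard error 0.35, limma adjusted p = 0.000303). Under the 19 alternatives this change ran from -3.05 to -1.28, and it was called in each.

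The Holstein controls had still lower MSTN signals, 2.45 to 5.11 with a median of 3.29, and only 5 of 13 arrays (C18, C21, C44, C47, C48) were well above background. Against the cross-breed controls the log2 change was -4.06 (standard error 0.51, limma adjusted p = 5.5e-06), and it ran from -4.47 to -1.62 under the alternatives tried. As most Holstein arrays were not well above background, this is not a measured size. The positive animals were higher than the Holstein controls by 1.7 (standard error 0.53, limma adjusted p = 0.019), but by 0.12 with pairwise cyclic loess (adjusted p = 0.878). This call was also lost with normexp background correction, with all 43 arrays in a common fit and without S56. Its size is likewise not a measured one, for the same dim Holstein arrays. Of the unknown animals, all 5 of circle 2 were well above background (5.43 to 7.57), as were 6 of 10 of group B (2.24 to 6.35 over all 10, but 4.9 to 6.35 in the 5 without low spike-in signal) and 0 of 6 of circle 4 (2.29 to 3.34). Within group A, the animals of circle 4 and circle 2 did not overlap in MSTN. As for GLUL, the share of all probes that separate these circles is not given here.

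The unknown animals of groups B and A were compared by their medians. On the log2 scale, FBXO32 (1.62) was higher by at least 1 in group B, and DDIT4L (-1.63) and FOXO1 (-1.65) were lower by at least 1. MSTN exceeded background clearly in only 5 of the 11 group A animals, and the median of group A was an array where it did not, so that its difference (1.51) is not a measured size, and it turned to -0.05 with normexp background correction. The MSTN median of group B lay below that of circle 2 and above that of circle 4. Of all tested probes 26.8% differed as much, 15.2% being higher and 11.6% lower in group B. GLUL (0.04) and TRIM63 (-0.10) differed by little, although circle 2 of group A had the higher medians (12.41 and 15.24). Between circles 4 and 2 the medians of DDIT4L (-2.86), GLUL (-1.84) and MSTN were lower by at least 1 in circle 4, beside 8.85% of the probes, and that of TRIM63 differed by -0.95. As no array of circle 4 was well above background for MSTN, the size of its difference was not measured. The means of circles 2 and 4 differed 11.5-fold when arrays of circle 4 with dimmer MSTN were set to their lowest signal well above background. This is not a firm lower bound, as signals up to 3.34 (animal 51) were not well above background. The difference of the MSTN medians was -0.46 with normexp background correction.

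In all, 4 unknown animals of group B (50, 78, 79, 81) shared both slides with the positive animals, which allows a comparison within slides. On slide 9 DDIT4L was 12.35 and 11.69 in S56 and S57, and 11.22 and 11.98 in animals 50 and 81. On slide 10 it was 11.43 and 11.67 in S21 and S54, and 10.83 and 9.91 in animals 78 and 79. The log2 change with slide as a block was 0.8 (95% interval 0.09 to 1.5, limma adjusted p = 0.389). For GLUL it was -0.17 (95% interval -0.67 to 0.33, limma adjusted p = 0.764). FOXO1 had -1.49 (95% interval -2.46 to -0.51, limma adjusted p = 0.283), with 8.5 and 8.8 in animals 78 and 79 against 6.0 and 6.18 in the positive animals beside them on slide 10. On slide 9 the animals overlapped in FOXO1, with 7.05 and 6.57 in animals 50 and 81 against 6.19 and 6.61 in S56 and S57. None of the 6 genes was called, nor any of the 16354 probes (0.0%), although 1873 (11.5%) had an unadjusted p under 0.05 in limma. Without animal 79, 9 probes were called.

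Among the Holstein controls, no pair of members was found to move together. The Pearson correlation of the 15 pairs over these 13 animals lay between -0.35 and 0.39, and none passed after adjustment (permutation test, lowest adjusted p = 0.519 over all 45 relations computed in 3 sets). DDIT4L and GLUL, lower together between the sets, had r = 0.20 (permutation test, adjusted p = 0.746). Of the 45 relations, 5 had an adjusted p under 0.05 for Pearson's r in these permutation tests, none of them in the Holstein controls. Their values are not given, since the animals of groups A and B fell into separate clusters, group A by circle and group B by its fast fibre markers.

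Fibre type markers moved with the same sets. All 6 fast fibre genes tested (ACTN3, ATP2A1, MYBPC2, MYH1, TNNC2, TNNT3; 6 of 9 on the array) were called lower in the positive animals than in the cross-breed controls, with a median log2 change of -4.37 beside -0.03 over all probes. The largest was MYBPC2, the fast myosin binding protein C (-6.01, limma adjusted p = 0.000115), followed by the calcium pump ATP2A1 (-5.12, limma adjusted p = 6.37e-05). All 6 were also lower than in the Holstein controls, with a median of -5.33. The mean log2 signal of the 6 genes was 13.36 in S21, 10.56 in S54, 11.86 in S56 and 12.35 in S57. It was 10.08 to 15.38 in group B (animal 76 had 11.72), 13.23 to 15.03 in the group A animals of circle 4, 16.2 to 16.81 in circle 2, 15.98 to 16.9 in K7 to K12 and 16.39 to 17.08 in C17 to C48. The 20 animals low in DDIT4L thus had fast fibre means of at most 15.38 and the 23 others of at least 15.98. All 6 genes were well above background on every array, and the part of fibre type in the member genes was not tested between the sets.

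Within the Holstein controls, TRIM63 had r = -0.48 with the fast fibre mean (adjusted p = 0.172), DDIT4L 0.19 (adjusted p = 0.771), GLUL -0.11 (adjusted p = 0.775) and FBXO32 -0.08 (adjusted p = 0.786), in two-sided permutation tests over 13 animals, adjusted over 12 relations chosen after seeing the data. For FOXO1, Pearson's r was 0.56 (adjusted p = 0.0992) and Spearman's rho 0.65 (adjusted p = 0.045, same permutation tests), with r = 0.43 without the 2 animals farthest from the median of the fast fibre mean. The relation of FOXO1 had no direction within slides, where the animal of higher fast fibre mean had the higher FOXO1 in 3 of 6 pairs sharing a slide, and r was 0.42 over the 6 arrays of one scan day. TRIM63 was lower in the animal of higher fast fibre mean in 5 of 6 pairs. MSTN fell into clusters here, with 4.49 to 5.11 on the 5 arrays well above background and 2.45 to 3.38 on the others, so that no r is given. The 5 had fast fibre means of 16.7 to 17.08 and the others of 16.39 to 16.86, and the animal of higher fast fibre mean had the higher MSTN in 5 of 6 pairs. Over all 13 animals, MSTN rose with the fast fibre mean and passed these permutation tests after adjustment by both measures. Such a value pools the clusters.

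In group B the fast fibre means formed separate clusters, 10.08 to 11.72 in 5 animals (39, 60, 61, 76, 79) and 14.09 to 15.38 in the 5 others (29, 50, 52, 78, 81), and no r is given. The animals of low fast fibre mean had GLUL signals of 10.99 to 12.11 against 9.95 to 11.35 in the others, TRIM63 of 14.24 to 14.85 against 13.31 to 14.38, and FOXO1 of 7.77 to 8.98 against 6.57 to 8.5. DDIT4L ran the other way, with 8.97 to 11.7 against 10.83 to 11.98. The ranges overlapped for each of these genes, and the clusters, which were seen in the data, were not compared by a test. Over all 10 animals, GLUL and TRIM63 passed the permutation test against the fast fibre mean after adjustment over the same 12 relations, both falling as it rose, as did DDIT4L by rank (Spearman's rho), which rose with it, but such a value pools the clusters.

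**Figure D4:**
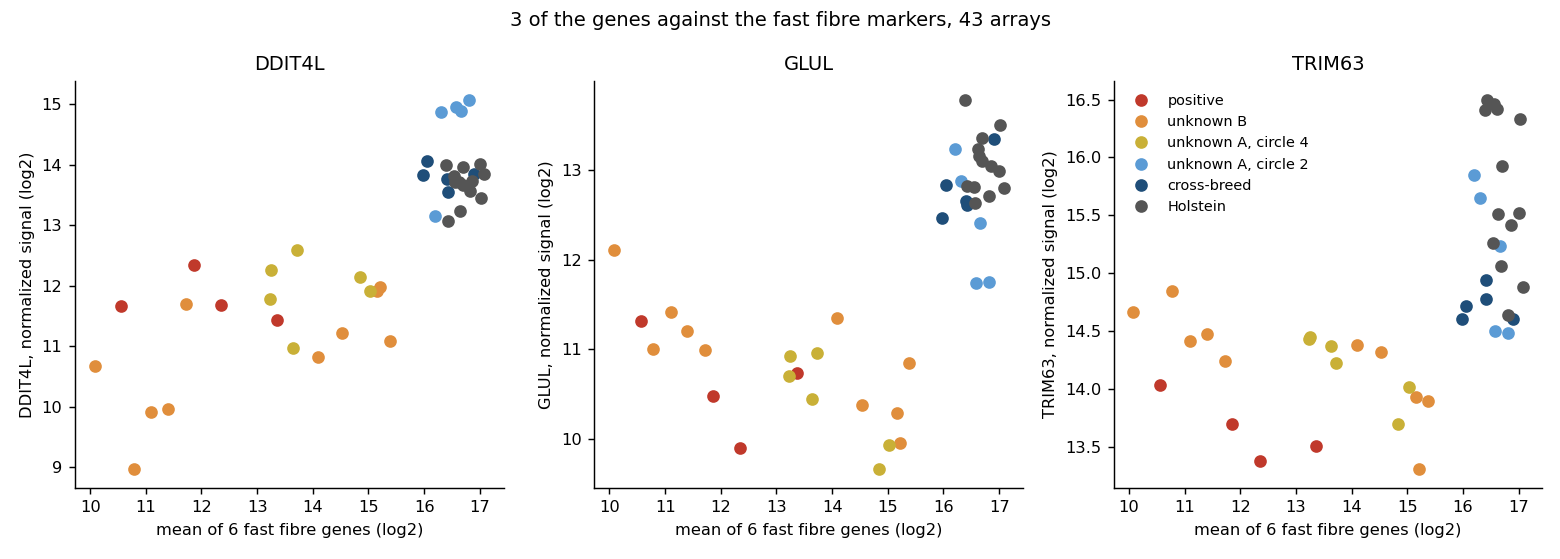
Normalized log2 signal of DDIT4L, GLUL and TRIM63 (vertical) against the mean log2 signal of 6 fast fibre genes (horizontal) on each of the 43 arrays, 1 point per animal, coloured by set. The 23 animals of circle 2 and the control sets lie at fast fibre means of at least 15.98 and the 20 others at 10.08 to 15.38.

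Other markers differed as well, beside 14.4% of all probes called higher and 13.8% called lower against the cross-breed controls. Of 8 slow fibre genes, 3 were higher in the positive animals than in the cross-breed controls (MYL3 by 2.09, TNNT1 by 1.11 and MYL2 by 1.1 on the log2 scale) and none lower, with a median of 0.85. This count depended on the scaling, with 5 higher under 75th percentile scaling and normexp background correction, 1 under quantile normalization, and 1 higher and 1 lower under pairwise cyclic loess, where the median was 0.15. Of 5 adipocyte genes tested, 4 were higher (FABP4 by 5.23, CIDEC by 4.09, ADIPOQ by 2.62, LPL by 1.7), and ADIPOQ was well above background on 1 of 5 cross-breed arrays. Of 6 fibroblast genes, 4 were lower (COL1A1 by a change of -2.35, COL1A2 by -1.9, COL3A1 by -1.77, FBN1 by -1.66), and of 5 endothelial genes 3 were higher (TEK by 1.64, VWF by 1.55, KDR by 1.07). Against the Holstein controls 8.4% of all probes were called higher and 9.4% lower. There the slow fibre count was 1 higher, the adipocyte count 0 in either direction, the fibroblast count 5 lower and the endothelial count 2 higher. The part of these cell types in the 6 genes was not tested.

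The members stand within wider pathways, given as lists. Against the cross-breed controls, 28.1% of all probes were called, and the share called was 20% in the list of ubiquitin ligases and atrophy genes, 21.1% in that of FOXO factors and autophagy, 17.4% in that of mTORC1 restraint, 35.0% in that of myostatin and activin, 22.2% in that of glutamine metabolism and 28.6% in that of glucocorticoid targets. The shares of the first 3 lists and of glutamine metabolism lay below that of all probes. With the Holstein controls as reference the shares were 10.0%, 10.5%, 13%, 20%, 16.7% and 50.0% in the same order, beside 17.8%. Between the control sets (Holstein minus cross-breed) they were 25%, 21.1%, 21.7%, 45%, 16.7% and 50.0%, beside 20.6%. In the list of ubiquitin ligases and other atrophy genes, 20 of 22 were tested. Against the cross-breed controls 3 were lower, the ligases NEDD4 (-2.73, limma adjusted p = 5.5e-06), FBXO40 (-1.39) and TRIM63, and ubiquitin itself, UBB, was higher (1.16). The median was -0.03, the same as over all probes. Relative to Holstein controls, 2 were lower, TRIM63 and FBXO31 (-1.55), and none higher.

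Of 19 FOXO and autophagy genes tested, 3 were higher against the cross-breed controls, all members of the ATG8 family that coats the autophagosome (GABARAPL1 by 1.42, MAP1LC3A by 1.25, GABARAP by 1.0 on the log2 scale). In the processed values of the authors 2 genes were higher. The cross-breed controls had the lowest medians of all sets for GABARAPL1 (12.69) and MAP1LC3A (11.25), but not for GABARAP (13.99, against 13.47 in circle 4). BNIP3, a receptor for the removal of mitochondria, was lower (-1.16, limma adjusted p = 7.41e-05). Compared with Holstein controls, only FOXO1 and the lysosomal protease CTSL (-1.85) were called, both lower.

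Of 23 genes of mTORC1 restraint and insulin signalling, 3 were lower and 1 higher against the cross-breed controls, with a median of -0.1. With pairwise cyclic loess 7 were lower and 1 higher, with a median of -0.64, and under 75th percentile scaling, quantile normalization, normexp background correction and in the processed values of the authors there were 3 lower and none higher. DDIT4, the closest relative of DDIT4L and also an inhibitor of mTORC1, was lower beside it (-1.94, standard error 0.24, limma adjusted p = 9.27e-05), at 11.89 to 12.58 in the positive animals and 13.8 to 14.79 in the cross-breed controls. RHEB, the activator of mTORC1, was lower by a change of -1.3 and the receptor IGF1R, just past the 2-fold limit, higher by 1.03. With the Holstein controls as reference, DDIT4 was again lower (-1.86, limma adjusted p = 0.000963), and SESN3 was higher (1.46). Group B had DDIT4 signals of 12.3 to 14.62 with a median of 13.79, so that DDIT4 did not separate the sets as DDIT4L did.

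The myostatin and activin list had 20 genes tested, of which 4 were lower and 3 higher against the cross-breed controls, with a median of -0.62 beside -0.03 over all probes. GDF11, the closest relative of myostatin, moved the other way (3.52, standard error 0.42, limma adjusted p = 8.6e-05), although only 3 of 5 cross-breed arrays were well above background for it. BMP1, a protease that releases myostatin from its propeptide, was higher by 3.07 and the receptor ACVR1B was lower by a change of -1.58. Against the Holstein controls GDF11 (2.86) and MSTN were higher, and FSTL3 (-1.29), which binds myostatin, and the matrix proteoglycan DCN (-1.6) were lower. Between the control sets 6 of the 20 genes were lower and 3 higher in the Holstein controls, or 45% beside 20.6% of all probes.

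Of 18 genes of glutamine and glutamate metabolism, GLUL was the only one called lower against the cross-breed controls. The glutamine carrier SLC1A5 (1.55), the asparagine synthetase ASNS (1.04) and the kinase BCKDK (1.63), which slows the breakdown of branched-chain amino acids, were higher, and the median was 0.37. In the Holstein comparison, GLUL and the carrier SLC7A5 (-1.49) were lower and BCKDK was higher (1.61).

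Of 14 genes of the glucocorticoid receptor and its known targets, 3 were higher and 1 lower against the cross-breed controls (28.6% beside 28.1% of all probes). They were ANGPTL4, an inhibitor of lipoprotein lipase (6.3, limma adjusted p = 1.83e-06), TSC22D3 (1.74, well above background on 2 of 5 cross-breed arrays), PDK4 (1.19) and ERRFI1 (-1.26). With Holstein animals as controls, 6 were lower (FKBP5, KLF15, PDK4, HSD11B1, KLF9, PER1) and 1 was higher (ANGPTL4), or 50.0% beside 17.8% of all probes, and a median of -0.85. Between the control sets, 6 of the 14 were higher and 1 lower in the Holstein than in the cross-breed controls, with a median of 0.93. PDK4 was thus higher against one control set and lower (-2.0) against the other. ANGPTL4 was 13.15 to 13.86 in the positive animals and 6.2 to 8.01 in the cross-breed controls, below all other sets. It was 9.13 to 14.05 in the Holstein controls, 10.87 to 13.99 in group B, 10.15 to 14.02 in circle 4 and 11.22 to 12.24 in circle 2. The genes called only against the Holstein controls in these lists were named after their values were seen.

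**Figure D5:**
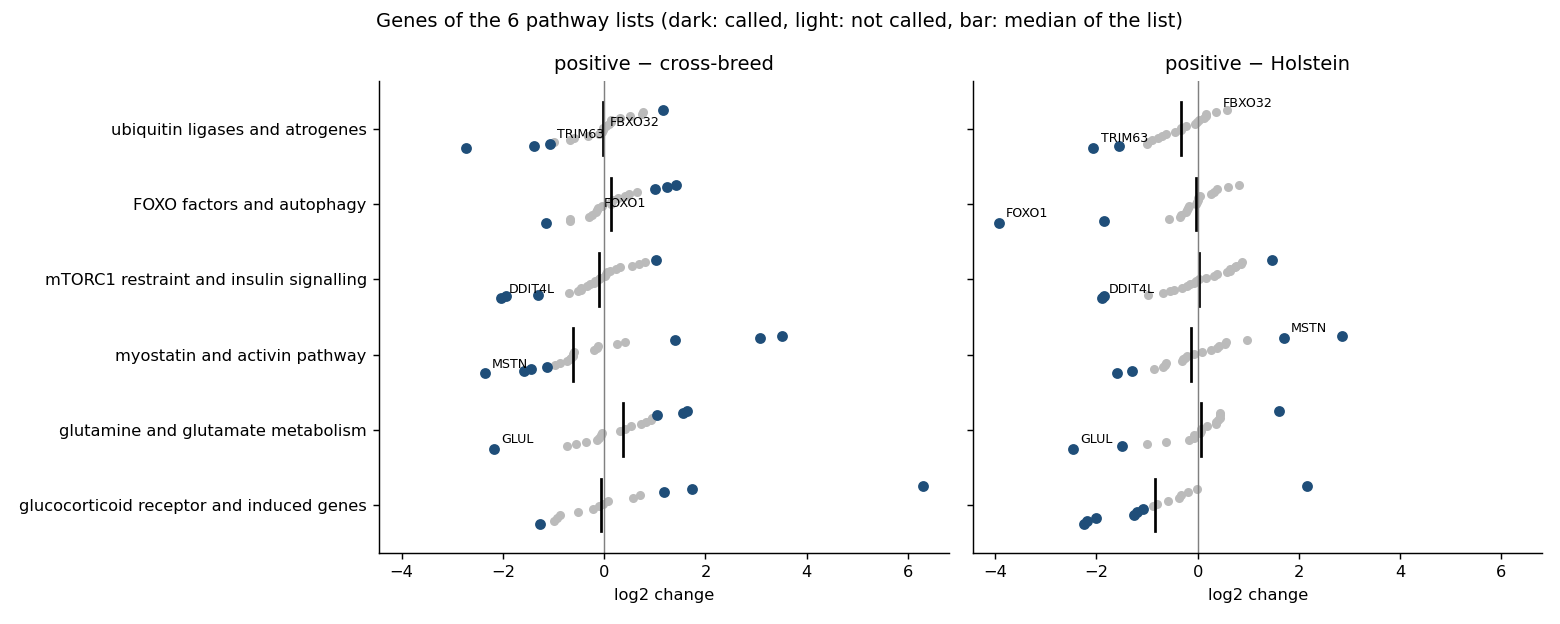
Log2 change of each tested gene of the 6 lists in both comparisons of the positive animals, which share those animals, with called genes dark, others light, members named and a bar at the median of each list. The medians lie between -0.62 and 0.37 against the cross-breed controls and between -0.85 and 0.06 against the Holstein controls.

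The genes whose signal varied most like that of each member, after the mean of each set was removed, were sought among 7340 named probes well above background on all arrays, as a description over 43 arrays. TRIM63 had the closest neighbours, SDC4 (r = 0.83), TIPARP (0.80), USP2 (0.77), CEBPD (0.77) and RASD1 (0.73), and in the 13 Holstein controls alone these values were 0.80 to 0.90. Among the genes nearest to GLUL were BCL2L1 (0.73) and FKBP5 (0.72), then AKAP8 and ZFYVE21 (both 0.68). FOXO1 had ZNF507 (0.81), SLC43A2 (0.80), FTSJ3 (0.78), UTP20 (0.73) and CREM (0.71), although CREM had -0.27 within the Holstein controls.

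FBXO32 was nearest to MITF (0.73), UBE2H (0.72), RAD54L2, MSI2 (both 0.68) and RPL11 (0.66), and MSTN to CILK1 (0.70), CRTC1 (0.62), AHCTF1, KDM4B and VEZF1 (each 0.60). MSTN was well above background on only 25 arrays, so that its values rest partly on dim signal and pool its clusters within the Holstein controls. DDIT4L had the loosest neighbours, ST6GALNAC6 (0.64), GPRC5C (0.59), NUCB1 (0.57), PDGFA (0.55) and CST6 (0.54), with -0.09 to 0.29 in the Holstein controls alone. Arrays of a set share slides and scan days, whose effects were not removed.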

How the data were processed

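For each of 43 arrays the authors deposited the spot table of the Agilent scanner software (Feature Extraction 9.5.1), with a background-subtracted processed intensity per spot. The deposited series matrix, a table of normalized intensity per spot, was log2-transformed and used as an alternative only. Gene spots and spike-in spots were log2-transformed and normalized by fast cyclic loess over all arrays in limma 3.58.1 (R 4.3.3), as the study's methods name this normalization, and spots of a probe were averaged without those flagged as outliers. Probes with a log2 signal under 4 on at least 30 arrays were removed, which left 16354 of 21475. Groups followed the labels, and the PCA sets followed the study's figure. Each comparison was fitted on its own samples with limma (moderated fit, Benjamini-Hochberg adjustment over all 16354 probes), and the comparison on shared slides had the slide as a block. A call required an adjusted p under 0.05 and a log2 change of at least 1. Correlations were tested with 100000 permutations (Python 3.11.15, numpy 2.4.6). The number of arrays limits the precision, and all animals are separate samples.

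The fit was also tested on simulated data with known changes, drawn with the means and variances of the positive and cross-breed arrays. The members and gene lists were chosen with earlier results of these data known. Named were all members, up to 4 genes per list with the largest change among those called in positive minus cross-breed, and the 5 probes most like each member, of which one near GLUL is not reported here; a gene with several probes entered a list with its brightest. List genes without a named probe here included FOXO6, TLL1, ACVR2B, MYH2, TNNI2, MYLPF, TNNI1 and SOX10, and those removed as dim were TRIM55, SESN1, DEPTOR, WFIKKN1, BCAT1, SLC38A1, LEP and ALAS2. Alternatives tried were 75th percentile scaling, quantile normalization, cyclic loess on every pair of arrays (pairwise), normexp background correction with an offset of 50, the series matrix, other filters, slide or scan day as a random block, a common fit of all arrays and leaving out single animals.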

Additional observations from a re-analysis of the deposited data

Results flagged for a closer look

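DDIT4L in animal 265, one of the 5 unknown animals of circle 2, had a log2 signal of 13.15, while the other 4 lay between 14.87 and 15.08. Its gap to the nearest animal took 0.89 of the whole range, more than Dixon's limit for 5 samples. The same animal had the highest GLUL (13.24), TRIM63 (15.85) and FOXO1 (11.24) and the lowest MSTN (5.43) of its set. This was the only case among the 30 combinations of gene and set that were tested, where chance gives about 1 in 20, and the reason was not tested.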

How the results depend on the processing

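For positive minus cross-breed, GLUL and MSTN were called under all 19 alternatives and DDIT4L under 18, the exception being the common fit of all 43 arrays (-2.03, adjusted p = 0.0547). TRIM63 fell below 2-fold with 75th percentile scaling and with normexp background correction (both -0.78), with quantile normalization (-0.92) and pairwise cyclic loess (-0.88), and ran from -1.2 to -0.98 without single animals. FBXO32, never called, turned to 0.2, 0.1 and 0.23 with 75th percentile scaling, pairwise loess and normexp, and ran from -0.2 to 0.05 without single animals. FOXO1 turned to 0.19 with pairwise loess and to 0.78 with normexp, and was -0.73 with quantile normalization. Against the Holstein controls, MSTN was not called with pairwise loess (0.12), normexp (0.34), the common fit (adjusted p = 0.102) or without S56 (1.62, adjusted p = 0.0582), and the other members kept their side of the threshold. TRIM63 between the control sets passed 2-fold with 75th percentile scaling (1.24) and without K8 (1.04). The difference of medians of MSTN between groups B and A turned to -0.05 with normexp, and that between circles 4 and 2 moved to -0.46. Pairwise loess also moved the counts of the lists against the cross-breed controls, to 5 lower and 3 higher ubiquitin ligases and atrophy genes, 7 lower and 4 higher myostatin and activin genes, 3 lower and 2 higher glucocorticoid targets, 2 lower fibroblast genes and 1 higher endothelial gene. With normexp, 2 of the myostatin and activin genes were higher and 2 lower. No FOXO and autophagy gene was lower with 75th percentile scaling or normexp. Against the Holstein controls, pairwise loess gave 5 lower and 2 higher ubiquitin ligases and atrophy genes. It gave 5 lower and 4 higher mTORC1 genes, and 5 lower and 3 higher myostatin and activin genes there. With normexp 3 glucocorticoid targets were lower and 1 higher there, and between the control sets 4 were higher and none lower. The causes were not tested. The counts of called probes were 1378 (positive minus cross-breed), 487 (positive minus Holstein) and 1350 (Holstein minus cross-breed) with normexp, where the offset leaves no probe under the filter, against 4597, 2911 and 3361. Without the filter, which tests more probes, they were 7589 and 5843 in both comparisons of the positive animals, and pairwise loess gave 5638 against the Holstein controls. On shared slides, 0 to 9 probes were called without single animals, 9 of them without animal 79. The share of higher probes among those called against the cross-breed controls was 51.1%, but 69.1% with 75th percentile scaling, 39.1% with quantile normalization, 33.5% with pairwise loess and 66.8% with a filter on background, and the median change of all probes moved from -0.03 to 0.11, -0.13, -0.25 and 0.11. Against the Holstein controls it was 47.2%, but 82.8%, 35.7%, 28.5% and 73.6% in the same order. Between the control sets it was 52.9%, but 35.4% with 75th percentile scaling. No paired analysis was possible because no animal number is shared between the groups. MSTN, well above background on 25 of 43 arrays, is the member that dim signal limits.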

Other observations

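Leukocyte and Schwann cell markers gave no call for positive minus cross-breed, with medians of -0.22 over 6 and -0.55 over 4 tested genes. Of the erythroid markers HBA and HBB were both higher, by 1.71 and 1.0 on the log2 scale, and neither was called against the Holstein controls; with pairwise cyclic loess 1 was higher and 1 lower than in the cross-breed controls, with a median of 0.04. A probe listed as LOC539243 and described as similar to glutamate-ammonia ligase, the older name of GLUL, did not pass the filter on dim probes and exceeded background on 7 of 43 arrays, 3 of which were of positive animals, so that its share in the GLUL signal was not analysed here.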
